A study of Rattus norvegicus with 36 samples.

Results

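MicroRNAs are made and used by a short chain of proteins, and 9 genes of that chain were followed here in CG-4, a rat cell line with properties of oligodendrocyte progenitors. The genes are Drosha and Dgcr8 (the Microprocessor), Xpo5 (nuclear export), Dicer1 and Tarbp2 (dicing), and Ago1, Ago2, Ago3 and Ago4 (the Argonaute proteins). They were taken by symbol, current or older, from the annotation of an Affymetrix rat exon array. At the gene level 5 of the 9 were named, each by 1 of 18901 transcript clusters: Drosha (cluster 7190844), Dgcr8 (7089812), Xpo5 (7359659), Ago3 (7291054) and Ago4 (7291090). Ago2 was named at the exon level only, by 19 probe sets under its older symbol Eif2c2, and Ago1, Dicer1 and Tarbp2 were not analysed here. No cluster carried a microRNA symbol, and microRNAs were not analysed here.

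A primary microRNA transcript is cut in the nucleus by the RNase III enzyme Drosha, which works with the RNA-binding protein DGCR8. Exportin-5 carries the resulting hairpin to the cytoplasm, Dicer cuts it again, and an Argonaute protein takes up the mature strand and silences the messenger RNAs it pairs with. In the oligodendrocyte lineage, loss of Dicer is known to disturb the maturation of progenitors into myelinating cells in mice. QKI, which the knockdowns aimed at, binds RNA and is required for normal myelin. The other target, hnRNP A1, regulates splicing and in human cells also binds some primary microRNAs.

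The study had 6 groups of 3 arrays, all of CG-4 cells grown in B104-conditioned medium. They were untreated cells, cells transfected with non-silencing siRNA, QKI siRNA or hnRNP A1 siRNA, and stable lines carrying a non-silencing shRNA or a QKI shRNA. The siRNAs were delivered by transfection, whereas each shRNA was studied in a stable line, so an effect of the hairpin and a difference between the lines cannot be told apart. The labels call the 3 arrays of a group biological replicates without naming separate cultures, so the p-values measure the spread between these arrays. Values are log2 intensities of bulk RNA, in which fewer cells of a type and less RNA per cell cannot be told apart.

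The 250 bases upstream of the RefSeq start site are shown for Drosha and Dgcr8, whose group means moved together, and for Xpo5, whose group means did not follow them. They come from the RefSeq promoter table of build GRCr8, which held 8 of the 9 members, and are written 5′ to 3′ on the gene's own strand. The Drosha window is chr2:63591728-63591977 (plus strand), that of Dgcr8 is chr11:96208788-96209037 (plus strand), and that of Xpo5 is chr9:22275746-22275995 (minus strand). Capitals mark CCAAT, the box bound by nuclear factor Y, or its reverse complement ATTGG in Drosha and Dgcr8, and, in Xpo5, a palindrome of 10 bases that is the consensus site of nuclear respiratory factor 1.
Drosha: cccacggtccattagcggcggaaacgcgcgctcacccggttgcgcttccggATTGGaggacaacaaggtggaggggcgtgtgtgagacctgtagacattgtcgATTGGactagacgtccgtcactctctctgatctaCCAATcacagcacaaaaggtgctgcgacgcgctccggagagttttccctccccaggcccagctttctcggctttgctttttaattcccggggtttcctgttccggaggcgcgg
Dgcr8: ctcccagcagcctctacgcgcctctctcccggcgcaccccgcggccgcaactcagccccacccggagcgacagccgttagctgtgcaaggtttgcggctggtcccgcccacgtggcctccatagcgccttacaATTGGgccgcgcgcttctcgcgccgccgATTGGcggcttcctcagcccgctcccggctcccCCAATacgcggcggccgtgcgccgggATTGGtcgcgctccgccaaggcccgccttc
Xpo5: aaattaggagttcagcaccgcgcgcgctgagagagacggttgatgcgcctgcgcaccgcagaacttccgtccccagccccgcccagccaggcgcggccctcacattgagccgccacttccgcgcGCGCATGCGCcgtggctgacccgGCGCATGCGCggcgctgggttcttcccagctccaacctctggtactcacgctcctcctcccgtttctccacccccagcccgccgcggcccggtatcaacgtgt
The Drosha window held CCAAT on either strand 3 times and the Dgcr8 window 4 times. At least 1 match was present in 34% of the 33469 upstream windows of the table, at least 3 in 2.52% and at least 4 in 0.565%. Xpo5, Ago3 and Ago4 had no CCAAT in their windows, and among the members not analysed here Dicer1 and Ago1 had it. The palindrome occurred 2 times in the Xpo5 window and in no other member's window, against 0.762% of all windows with at least 1 match and 0.0269% with at least 2. The Sp1-type box GGGCGG was found on either strand in 6 of the 8 member windows and in 30.5% of all windows, and TATAAA in none of the 8 and in 12.9% of all. No matches of these 4 motifs overlapped in the member windows. The thresholds of at least 2, 3 and 4 matches equal the counts in the windows shown. The shares over all windows were not matched for content of G and C, which was 72.4% in the Dgcr8 window. They are a description and no test of the members. These are matches of letters in the genome, and no binding was measured. The windows of Ago1, Ago3 and Ago4 all lie on chromosome 5.

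The targeted genes set the frame for the comparisons. Qki lay at 9.99, 10.02 and 9.67 on the QKI siRNA arrays and at 11.47, 11.39 and 11.14 on the non-silencing siRNA arrays, without overlap. That log2 change was -1.44 ± 0.22 (limma's moderated standard error here and below, n = 3 per group), with an adjusted p of 0.179. In the line labelled QKI shRNA it lay at 10.65, 10.35 and 11.14, against 10.90, 11.01 and 10.99 in the non-silencing line. Array 3 labelled QKI shRNA was thus above every array of its control line, and the log2 change of -0.25 ± 0.22 was not called. A call means an adjusted p under 0.05 in limma with Benjamini-Hochberg adjustment over all 18901 clusters. Hnrnpa1 lay at 7.90, 7.85 and 7.65 after hnRNP A1 siRNA and at 8.60, 8.47 and 8.44 in the same control, a change of -0.70 ± 0.19 (adjusted p = 0.393). Of the progenitor markers Olig1, Sox10, Nkx2-2 and Gpr17 had mean log2 levels from 7.76 to 9.68, while Cspg4 was dim at 3.67 and the 6 microglial markers had means from 3.34 to 3.87. The measured neuronal markers ran from 3.58 for Snap25 to 9.09 for Map2. Astrocyte markers ran from 2.99 for Gja1 to 5.45 for Slc1a3, and Schwann cell markers from 3.55 for Ngfr to 5.75 for Pmp22. With each gene centred on its mean, untreated array 3 correlated with its group at -0.15 and -0.09, and QKI shRNA array 3 at 0.12 and 0.16. They were not alone: hnRNP A1 siRNA array 3 correlated with its group at -0.11 and -0.03, QKI siRNA arrays 1 and 3 with each other at -0.34, and 9 of the 18 arrays were closest to an array of another group. Arrays 1 of QKI siRNA and hnRNP A1 siRNA were each other's closest (r = 0.61), as were arrays 2 (r = 0.48). Results are also given without untreated array 3 and QKI shRNA array 3, a pair taken from an earlier account of these data, and every array was left out in turn. Leaving out any 1 array gave no call among the members in the comparisons of QKI siRNA and hnRNP A1 siRNA with non-silencing siRNA or with untreated cells, nor for the line labelled QKI shRNA against untreated cells.

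All 5 members were above the middle of the array. Their means over the 18 arrays were 8.18 for Xpo5, 7.52 for Drosha, 6.42 for Dgcr8, 5.37 for Ago3 and 4.85 for Ago4, at percentiles from 64.3 to 94.0 of all clusters. Probes differ in brightness, so these levels do not rank the genes against each other. Each member varied by less than 1 log2 unit over the whole experiment, from 0.78 for Ago3 to 0.91 for Ago4. In a test for any difference over the 6 groups (moderated F) no member was called by limma, against 9.92% of all clusters. Drosha had the lowest adjusted p, 0.0546. Drosha and Ago3 were the members with an unadjusted p under 0.05, a threshold for which no share of all clusters is given here.

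**Figure D1:**
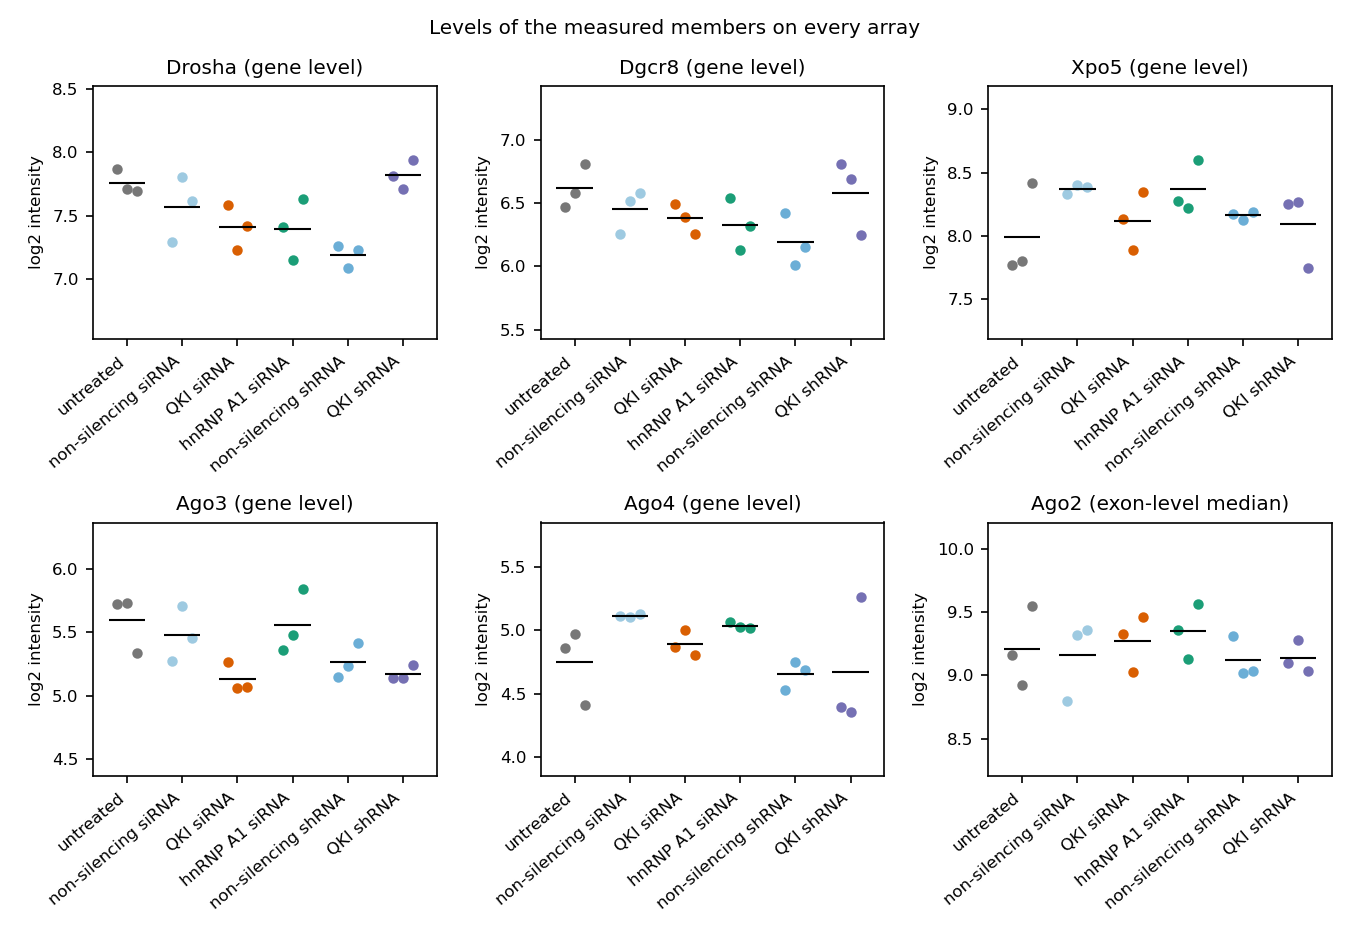
Log2 intensity (y axes, each spanning 2 log2 units) of the 5 members at the gene level, and of Ago2 as the median of its exon-level probe sets, on every array of the 6 groups (x axis). Points are arrays 1 to 3 from left to right and bars are group means; Drosha is lowest in the non-silencing shRNA line and highest in the line labelled QKI shRNA.

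QKI siRNA against non-silencing siRNA addressed what lowering Qki did to these genes, and no member was called by limma, against 0% of all clusters. All 5 members had a lower mean with QKI siRNA, as did 41.4% of all clusters, with a median log2 change of -0.22 against 0.04 over all clusters. Ago3 alone had an unadjusted p under 0.05, as did 9.11% of all clusters. Ago3 and Ago4 lay wholly below the control, against 6.63% of all clusters.

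The comparison of the stable lines gave 1 called member, Drosha, which was higher in the line labelled QKI shRNA, where Qki itself was not called lower. Of all clusters 10.3% were called there, 3.38% as higher, and 9.14% were wholly higher without overlap. Drosha was the only member without overlap. The other 4 members were split, with a median over the 5 of 0.02 against 0.01 over all clusters.

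Under hnRNP A1 siRNA no member was called and none had an unadjusted p under 0.05, against 0.00529% and 7.04% of all clusters. Ago4 alone lay wholly below its control, against 5.12% of all clusters. Ago3 was the only member with a higher mean as deposited, though its direction and those of Xpo5 and Ago4 turned under alternatives given in the closing section.

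Against untreated cells no member was called by limma after any of the 3 siRNAs or in the line labelled QKI shRNA. The shares of all clusters called were 0.46% for QKI siRNA, 0.296% for hnRNP A1 siRNA, 0.0794% for non-silencing siRNA and 2.04% for the line. An unadjusted p under 0.05 was reached by 2, 1, 0 and 1 members in that order. The shares of all clusters at that looser threshold are not given here, so these counts cannot be read as an excess.

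**Figure D2:**
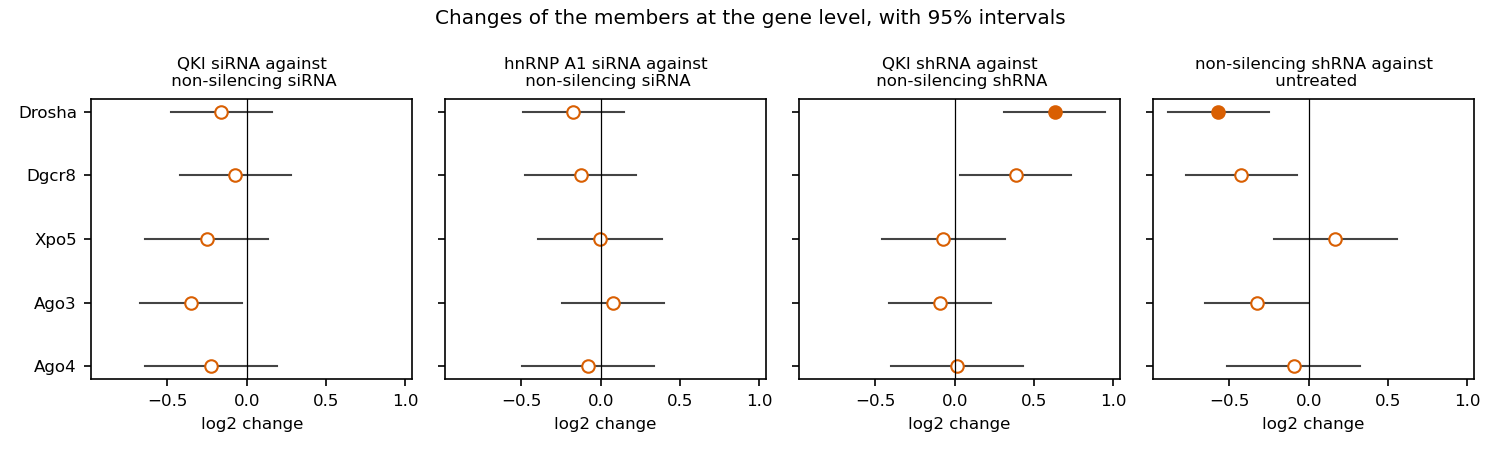
Log2 change at the gene level (x axes) of the 5 members (y axis) in 4 comparisons, with 95% intervals of the limma fit over 18 arrays; filled points were called at an adjusted p under 0.05. Drosha is called higher in QKI shRNA against non-silencing shRNA (0.63) and lower in non-silencing shRNA against untreated (-0.57), and no other member is called.

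Drosha, the nuclease of the Microprocessor, was the member whose level differed between the stable lines. It lay at 7.26, 7.08 and 7.23 in the non-silencing shRNA line and at 7.81, 7.71 and 7.94 in the line labelled QKI shRNA. The groups did not overlap, and every array of the line labelled QKI shRNA was higher. The log2 change was 0.63 ± 0.15, or 1.55-fold, and was called (limma adjusted p = 0.0114). The change was 0.57 without untreated array 3 and QKI shRNA array 3 (adjusted p = 0.0415). Centring each array on its median ended the call (0.57, adjusted p = 0.125), as did leaving out non-silencing shRNA array 2 (0.58, adjusted p = 0.0511).

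Some cell type markers moved in the same comparison, while none of the measured neuronal, microglial and fibroblast markers was called. The mean of the 5 measured astrocyte markers was 4.53 to 4.97 on the QKI shRNA arrays and 3.77 to 3.95 on the non-silencing shRNA arrays, with all 5 higher and 2 called. It was 4.15 to 4.87 in untreated cells and 3.94 to 4.17 in the 3 siRNA groups. Aqp4 and Gja1 of this list had means of 3.27 and 2.99 over all arrays, below the median cluster. The mean of the 5 measured progenitor markers was 6.92 to 7.82 against 7.82 to 8.07, with 4 lower and 1 called. That of the 3 measured Schwann cell markers was 4.04 to 4.35 against 4.64 to 5.06. Only 1 of these 3 was lower, and called, while 2 were higher. Their part in the differences of Drosha and of the pathway genes was not tested.

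Set against untreated cells, the non-silencing line was the only group in which Drosha was called. Untreated cells had Drosha at 7.87, 7.71 and 7.70, above all 3 arrays of the non-silencing shRNA line. That difference was -0.57 ± 0.15, called by a narrow margin (limma adjusted p = 0.0498), in a comparison that called 3.26% of all clusters, 0.783% as lower, and left 5.87% wholly lower. Without untreated array 3 and QKI shRNA array 3 it was -0.60 with an adjusted p of 0.0506. The call was kept in 2 of 8 alternatives and in 6 of the 18 fits that left out 1 array. The line labelled QKI shRNA differed from untreated cells by 0.06 (95% interval -0.26 to 0.38, adjusted p = 0.947), and these groups overlapped. These 2 comparisons share the untreated arrays, and the first shares the non-silencing arrays with that between the lines.

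In the siRNA setting Drosha lay at 7.29, 7.81 and 7.61 with non-silencing siRNA, at 7.59, 7.23 and 7.42 with QKI siRNA and at 7.41, 7.15 and 7.63 with hnRNP A1 siRNA. The 3 groups overlapped. The QKI siRNA difference was -0.16 (95% interval -0.48 to 0.16, limma adjusted p = 0.808) and that of hnRNP A1 siRNA -0.17 (-0.49 to 0.14, adjusted p = 0.922). A direct test of the QKI siRNA difference against the difference between the stable lines gave -0.79 ± 0.21 (limma adjusted p = 0.0433), while 4.71% of all clusters were called in it. That call was lost without untreated array 3 and QKI shRNA array 3 (-0.73, adjusted p = 0.0797), and it was kept in 5 of the 18 fits that left out 1 array. Drosha lay wholly below untreated cells with QKI siRNA (-0.35, limma adjusted p = 0.264) and with hnRNP A1 siRNA (-0.36, adjusted p = 0.331), where 5.59% and 4.41% of all clusters did. In the order of group means, from QKI shRNA at 7.82 through untreated, non-silencing siRNA, QKI siRNA and hnRNP A1 siRNA to non-silencing shRNA at 7.19, all neighbours overlapped.

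Dgcr8 encodes the RNA-binding partner of Drosha. It lay at 6.42, 6.01 and 6.15 in the non-silencing shRNA line and at 6.81, 6.69 and 6.25 in the line labelled QKI shRNA, where array 3 fell within the range of the control line. The log2 change was 0.38 ± 0.16 and was not called (limma adjusted p = 0.19). It was 0.55 and was called without untreated array 3 and QKI shRNA array 3 (adjusted p = 0.0321). That fit called 2470 of the 18901 clusters between the lines, against 1943 with all arrays kept. Quantile normalization also gave a call (0.52, adjusted p = 0.0221). Dgcr8 was called in only 2 of 9 alternatives, and in 1 of the 18 fits that left out 1 array. The change was 0.33 after centring each array on its median (limma adjusted p = 0.462). From the median of the exon-level probe sets it was 0.28 (adjusted p = 0.681).

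Against untreated cells, at 6.47, 6.58 and 6.81, Dgcr8 was lower on all 3 non-silencing shRNA arrays. That difference was -0.42 ± 0.16 (limma adjusted p = 0.203). With non-silencing siRNA it lay at 6.26, 6.51 and 6.58, with QKI siRNA at 6.49, 6.39 and 6.25 and with hnRNP A1 siRNA at 6.54, 6.12 and 6.31, all overlapping. The QKI siRNA difference was -0.07 (95% interval -0.42 to 0.28) and that of hnRNP A1 siRNA -0.12 (-0.48 to 0.23). In the order of its group means, from untreated at 6.62 to non-silencing shRNA at 6.195, all neighbours overlapped, and none of the 15 pairs of groups was called.

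Drosha and Dgcr8 had a like order of group means, with a Pearson r of 0.98 over the 6 means. Over the 18 arrays r was 0.63, and after taking the group means away it was 0.22. The points share their arrays and normalization, and these values are a description. The other 9 pairings of the 5 members ran from -0.43 to 0.39 over the 18 arrays. Xpo5 and Ago4 correlated at 0.82 over the group means but at -0.83 within groups.

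Xpo5, the exporter of the hairpin precursors, was not called in any comparison with all arrays kept. It lay at 8.33, 8.40 and 8.39 with non-silencing siRNA, at 8.13, 7.89 and 8.34 with QKI siRNA and at 8.28, 8.22 and 8.60 with hnRNP A1 siRNA. All 3 groups overlapped: the QKI siRNA difference was -0.25 ± 0.18 (limma adjusted p = 0.732), and hnRNP A1 siRNA differed by -0.01 (95% interval -0.39 to 0.38). In the stable lines it lay at 8.18, 8.13 and 8.19 without a target and at 8.25, 8.27 and 7.75 with the QKI hairpin, where array 3 alone was low. That difference was -0.07 (-0.46 to 0.32), and 0.10 without untreated array 3 and QKI shRNA array 3. Quantile normalization with all arrays kept turned its direction too (0.0921).

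Untreated cells had Xpo5 at 7.77, 7.80 and 8.42, again with array 3 apart from the others. On arrays 1 and 2 they were below every siRNA array. Non-silencing siRNA differed from them by 0.38 ± 0.18 (limma adjusted p = 0.496), and no member was called or had an unadjusted p under 0.05 in that comparison, with 0.0794% of all clusters called. Against all 3 untreated arrays the hnRNP A1 siRNA difference was 0.37 ± 0.18 and not called (limma adjusted p = 0.427, with 0.296% of all clusters called). Without untreated array 3 and QKI shRNA array 3 it was 0.58 and was called (adjusted p = 0.0332). That fit called 843 of the 18901 clusters in this comparison, against 56 with all arrays kept. The group means of Xpo5 ran from 8.37 with non-silencing siRNA to 7.99 in untreated cells. Of the neighbours in that order only hnRNP A1 siRNA and non-silencing shRNA did not overlap (adjusted p = 0.733).

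The Argonaute genes Ago3 and Ago4 encode proteins that bind microRNAs, and in mammals neither is the main slicing Argonaute. Ago3 lay at 5.28, 5.71 and 5.46 with non-silencing siRNA and at 5.27, 5.06 and 5.07 with QKI siRNA. The groups did not overlap, but the highest QKI siRNA array was within 0.02 of the lowest control array. The log2 change was -0.35 ± 0.15, the largest of the 5 members in this comparison, with a limma adjusted p of 0.522. The median of its exon-level probe sets gave -0.59 ± 0.20 (adjusted p = 0.402). With hnRNP A1 siRNA Ago3 lay at 5.36, 5.48 and 5.84, overlapping the control.

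In the stable lines Ago3 lay at 5.15, 5.23 and 5.42 without a target and at 5.14, 5.14 and 5.24 with the QKI hairpin. The difference was -0.09 (95% interval -0.41 to 0.23). Untreated cells had it at 5.72, 5.73 and 5.33, and both QKI groups lay wholly below them, by -0.46 ± 0.15 for QKI siRNA (limma adjusted p = 0.171) and by -0.42 ± 0.15 for the line labelled QKI shRNA (adjusted p = 0.228). Of all clusters, 0.46% and 2.04% were called in these comparisons, and 5.59% and 6.03% were wholly lower. Without untreated array 3 and QKI shRNA array 3 the QKI siRNA difference was -0.60 and was called (adjusted p = 0.0484). That fit called 897 of the 18901 clusters in the QKI siRNA comparison, against 87 with all arrays kept. In the order of the group means, from untreated at 5.59 through hnRNP A1 siRNA, non-silencing siRNA, non-silencing shRNA and QKI shRNA to QKI siRNA at 5.13, all neighbours overlapped.

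Ago4 varied least within the non-silencing siRNA group. It lay at 5.11, 5.11 and 5.13 with non-silencing siRNA, at 4.87, 5.003 and 4.80 with QKI siRNA and at 5.07, 5.02 and 5.02 with hnRNP A1 siRNA. Both knockdown groups lay wholly below the control, by -0.22 ± 0.20 (limma adjusted p = 0.79) and by -0.08 ± 0.20 (adjusted p = 0.992). The fit's error pools all groups and is wider than the spread within these 3. Against untreated cells Ago4 was wholly higher with non-silencing siRNA (0.37 ± 0.20, adjusted p = 0.535) and with hnRNP A1 siRNA (0.29 ± 0.20, adjusted p = 0.594), as were 15.7% and 13.5% of all clusters.

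In the line labelled QKI shRNA Ago4 lay at 4.39 and 4.35 on arrays 1 and 2 but at 5.26 on array 3, the highest value of all 18 arrays. The non-silencing line had 4.53, 4.75 and 4.68, and untreated cells had 4.86, 4.97 and 4.41. The difference between the lines was 0.02 (95% interval -0.40 to 0.43), and -0.28 without untreated array 3 and QKI shRNA array 3 (limma adjusted p = 0.124). Against untreated cells it went from -0.08 to -0.55, called, without those arrays (adjusted p = 0.0103). That fit called 1635 of the 18901 clusters in the same comparison, against 385 with all arrays kept. Group means ran from 5.12 with non-silencing siRNA to 4.65 in the non-silencing line. Among neighbours only non-silencing siRNA with hnRNP A1 siRNA, and hnRNP A1 siRNA with QKI siRNA, did not overlap, and neither pair was called.

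Ago2, the Argonaute with slicer activity, was followed through the median of its 19 probe sets on each array. It lay at 9.16, 8.92 and 9.55 in untreated cells, at 8.80, 9.32 and 9.36 with non-silencing siRNA and at 9.33, 9.03 and 9.46 with QKI siRNA. With hnRNP A1 siRNA it lay at 9.36, 9.13 and 9.57, in the non-silencing line at 9.31, 9.02 and 9.03 and in the line labelled QKI shRNA at 9.10, 9.28 and 9.04. All groups overlapped. Fitted over 13124 genes summarised in the same way, the change was 0.11 ± 0.19 for QKI siRNA, 0.02 ± 0.19 for QKI shRNA and 0.19 ± 0.19 for hnRNP A1 siRNA, each against its control (limma adjusted p = 0.9, 0.984 and 0.899). The shares of all genes called in this summary were 0.00762%, 11.2% and 0.0305%. Against untreated cells all 19 probe sets had a higher mean with hnRNP A1 siRNA, from 0.01 to 0.83, as did 53.9% of all probe sets, and none of the 19 was called, against 0.0562% of all probe sets. Probe sets of a gene share their RNA and are not replicates.

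The exon-level probe sets show whether the change of Drosha ran along the transcript. Of its 43 probe sets, 42 had a higher mean with the QKI hairpin than with the non-silencing one, against 50.5% of 204586 probe sets, with a median change of 0.64. Of the 43, 6 were called, against 4.95% of all probe sets. The 6 called ones rose by 0.82 to 2.29 (probe sets 5731407, 5799227, 6165047, 6168686, 6393150 and 6478543). All 43 were lower in the non-silencing line than in untreated cells, with a median of -0.59, and 1 was called, against 0.862%. Against untreated cells 27 of the 43 were higher in the line labelled QKI shRNA and 16 lower, with a median of 0.04. The median of the 43 probe sets gave 0.80 ± 0.21 between the stable lines (limma adjusted p = 0.023).

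Of the 21 probe sets of Dgcr8, 19 had a higher mean with the QKI hairpin, with a median change of 0.40, and none was called. Xpo5 had 38 probe sets, of which 32 were lower with QKI siRNA than with its control, and Ago3 had 21, of which 19 were lower. Their medians were -0.32 and -0.29, and no probe set of any member was called in that comparison, in which 0% of all probe sets were called and 51.6% were higher. With hnRNP A1 siRNA none was called either, against 0.000978% of all probe sets. Of the Xpo5 probe sets 37 of 38 were higher with non-silencing siRNA than in untreated cells, against 54.7% of all probe sets, and none was called, against 0.00733%.

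**Figure D3:**
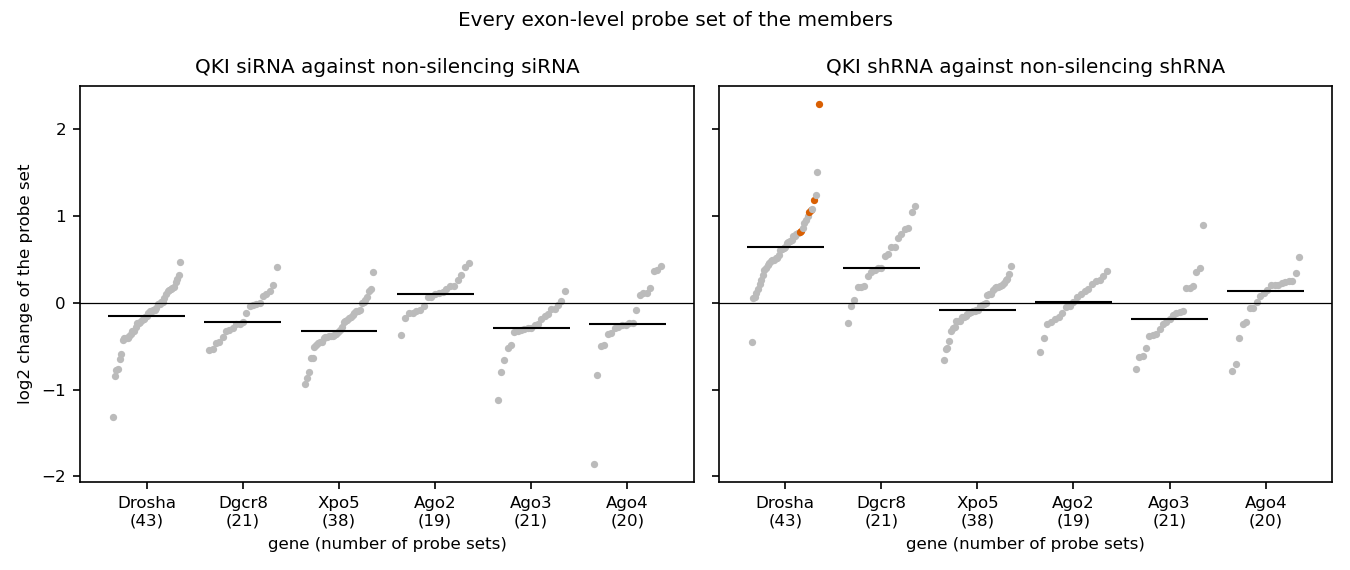
Log2 change (y axis) of every exon-level probe set of the 6 members named there (x axis, with the number of probe sets) in the QKI siRNA and QKI shRNA comparisons, sorted within each gene; bars are medians and orange points were called. Drosha probe sets lie above 0 in the QKI shRNA comparison except for 1, and 1 of them reaches 2.29.

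Exon usage was taken as the difference, on each array, of a probe set from the level of its gene, over 112630 probe sets of 9817 genes. Among the 5 members with a gene-level value a single probe set was called, Drosha 6168686. It lay at 5.72, 5.15 and 5.10 in the non-silencing line and at 7.23, 7.67 and 7.94 in the line labelled QKI shRNA. On the other 12 arrays it lay from 6.93 to 8.43, so the non-silencing line was alone in its low values. Relative to the Drosha level its usage changed by 1.66 ± 0.27 between the stable lines (limma adjusted p = 0.00804), with 0.636% of probe sets and 4.97% of genes called. The non-silencing line differed from untreated cells by -1.51 ± 0.27 (adjusted p = 0.0476), with 0.0684% of probe sets and 0.733% of genes called. The line labelled QKI shRNA differed from untreated cells by 0.15 ± 0.27 (adjusted p = 0.999), with 0.063% of probe sets and 0.448% of genes called.

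The usage of that probe set differed by 0.15 ± 0.27 with QKI siRNA and by -0.03 ± 0.27 with hnRNP A1 siRNA, neither called, with 0% of probe sets and genes called in each. At an unadjusted p under 0.05 limma gave 3 of the 43 Drosha probe sets in each of these siRNA comparisons, against 8.24% and 6.29% of all probe sets. The call between the stable lines was lost when QKI shRNA array 2 was left out (1.57, limma adjusted p = 0.0526), and kept without untreated array 3 and QKI shRNA array 3 (1.56, adjusted p = 0.0264). diffSplice, which sets a probe set against the others of its gene, also called Drosha between the stable lines (Simes adjusted p = 0.00318), with 5.16% of genes called. It called no other member there, and no member with QKI siRNA or hnRNP A1 siRNA, where 1.56% and 0.347% of genes were called. The position of the probe set in the transcript is not given in the sources used here.

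**Figure D4:**
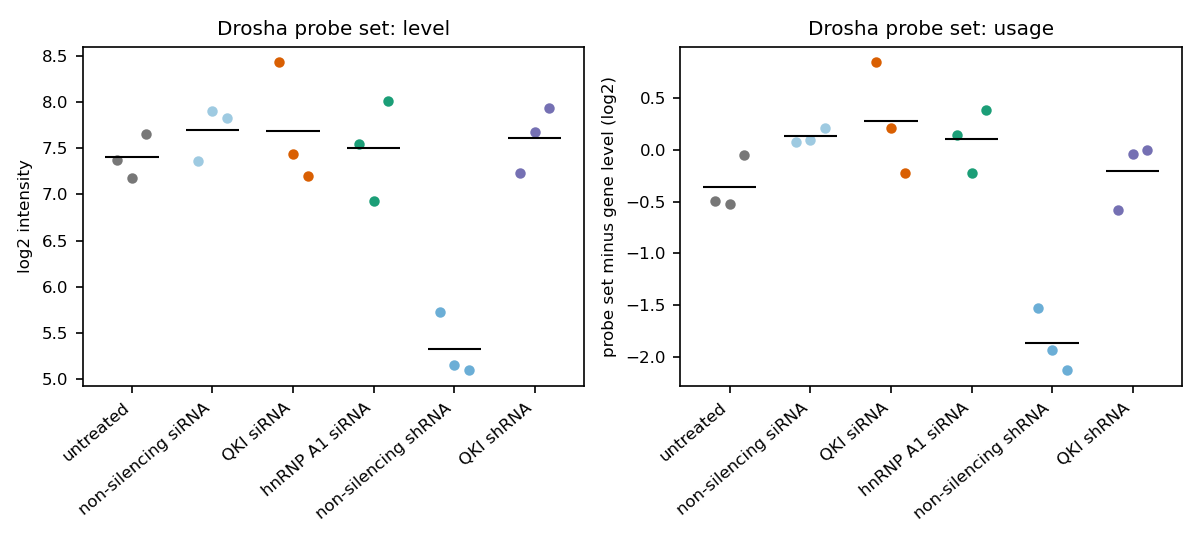
Drosha probe set 6168686 on every array of the 6 groups (x axes), as its log2 intensity (left) and as its value minus the gene-level value of Drosha (right, log2). Bars are group means; the 3 non-silencing shRNA arrays lie at 5.10 to 5.72, below all 15 others.

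Other genes of the small RNA pathway were described from lists of 92 genes, 64 of them measured at the gene level. None was called by limma with QKI siRNA or hnRNP A1 siRNA, where 3 and 0 of the 64 had an unadjusted p under 0.05. Of all clusters 9.11% and 7.04% reached that threshold. In the QKI shRNA comparison 8 were called higher and 2 lower, or 15.6% of the 64 against 10.3% of all clusters. The median change of the 64 was 0.06, against 0.01 over all clusters. There were 11 calls without untreated array 3 and QKI shRNA array 3, and with only the arrays of the 2 lines and a block for the replicate number, which pairs the arrays in this comparison, there were 6. Centring each array left 3 calls and quantile normalization gave 14. Of all 18901 clusters 2470 were called without the 2 arrays, 1461 after centring and 1996 after quantile normalization. After centring the share called among the 64 was thus below that of all clusters. For the fit with the block the share of all clusters is not given here.

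The list of nuclear processing and export partners gave 3 of the calls among 9 measured, with 8 of the 9 higher and a median of 0.53. These 9 included the knockdown target Hnrnpa1, which was not counted in the pathway total above. Hnrnpa1 was higher by 0.20 in this comparison and was not called. Adarb1 and Adar, which edit adenosine in double-stranded RNA, changed by 0.76 ± 0.18 and 0.69 ± 0.21 (limma adjusted p = 0.0111 and 0.0467). The Adar call was kept in 5 of the 18 fits that left out 1 array and lost after centring (adjusted p = 0.193). The Adarb1 call was lost after centring (adjusted p = 0.0576) and from the exon-level median (adjusted p = 0.109). With only the arrays of the lines the Adarb1 call was lost too (limma adjusted p = 0.0688). It was kept in 5 of 9 alternatives and in 16 of the 18 fits that left out 1 array. Srsf3, a splicing factor that in human cells helps Drosha find its substrates, changed by 0.54 ± 0.16 (adjusted p = 0.0421), but the median of its exon-level probe sets went the other way (-0.99, not called). It was not called without untreated array 3 and QKI shRNA array 3 either (0.41, adjusted p = 0.153). Adar was at 6.17 and 6.30 on untreated arrays 1 and 2 and at 7.12 on array 3. Adar thus overlapped between untreated cells and both lines. Of the 8 measured partners of dicing and loading none was called, with 3 higher and 5 lower means.

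Among 16 measured Argonaute partners and silencing effectors 3 were called. Dcp1a, a subunit of the decapping complex, lay at 6.87, 6.83 and 6.74 in the line labelled QKI shRNA and at 5.80, 5.62 and 5.67 in the non-silencing line. Its change was 1.12 ± 0.13 (limma adjusted p = 4.83e-05), and it was called against untreated cells too (0.80 ± 0.13, adjusted p = 0.00338). Eif4enif1, which carries the cap-binding protein eIF4E and takes part in mRNA silencing, rose by 0.73 ± 0.16 (adjusted p = 0.00657), a call lost after centring (adjusted p = 0.0759).

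Tnrc6a encodes GW182, the scaffold through which Argonaute proteins recruit deadenylases. It lay at 7.17, 7.22 and 7.42 in the line labelled QKI shRNA, at 7.04, 6.48 and 6.48 in the non-silencing line and at 7.54, 7.61 and 7.24 in untreated cells. The change between the lines was 0.60 ± 0.18 (limma adjusted p = 0.037), and the non-silencing line fell by 0.80 against untreated cells (adjusted p = 0.0233). Without untreated array 3 and QKI shRNA array 3 the change between the lines was 0.53 and not called (adjusted p = 0.0915). The Tnrc6a call was also lost after centring (adjusted p = 0.217) and with only the arrays of the lines (adjusted p = 0.115).

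In the deadenylation complexes 2 of 16 measured genes were called, both lower. Cnot8, a catalytic subunit of CCR4-NOT, lay at 6.68, 6.50 and 6.85 in the line labelled QKI shRNA, at 8.18, 8.37 and 8.19 in the non-silencing line and at 7.001, 7.36 and 7.13 in untreated cells. It changed by -1.57 ± 0.19 between the lines (limma adjusted p = 8.67e-05) and was called higher in the non-silencing line than in untreated cells (1.08 ± 0.19, adjusted p = 0.00838). Cnot2, a scaffold subunit of the same complex, changed by -0.50 ± 0.15 (adjusted p = 0.0419). The Cnot2 call was lost under the replicate block (adjusted p = 0.0515), also with only the arrays of the lines (adjusted p = 0.175), and was kept in 2 of 9 alternatives and in 8 of the 18 fits that left out 1 array.

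Among 9 measured genes of microRNA tailing and decay 2 were called. Lin28b, which blocks let-7 maturation, was dim, at 3.89, 3.82 and 3.45 in the line labelled QKI shRNA against 3.11 to 3.35 in all other groups. Its values in those other groups lay below 3.445, the 25th percentile of the cluster means. Its change was 0.57 ± 0.11 (limma adjusted p = 0.00318), while the median of its exon-level probe sets differed by 0.02. The Lin28b call was also lost with only the arrays of the lines (adjusted p = 0.072). Pnpt1, an exoribonuclease found mainly in mitochondria, rose by 0.66 ± 0.19 (adjusted p = 0.0375). The Pnpt1 call was lost after centring (adjusted p = 0.172), with only the arrays compared (adjusted p = 0.13) and from the exon-level median (adjusted p = 0.125), and kept in 13 of the 18 fits that left out 1 array. None of 7 measured genes of the PIWI clade was called, although all 7 had a higher mean, with a median of 0.03.

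**Figure D5:**
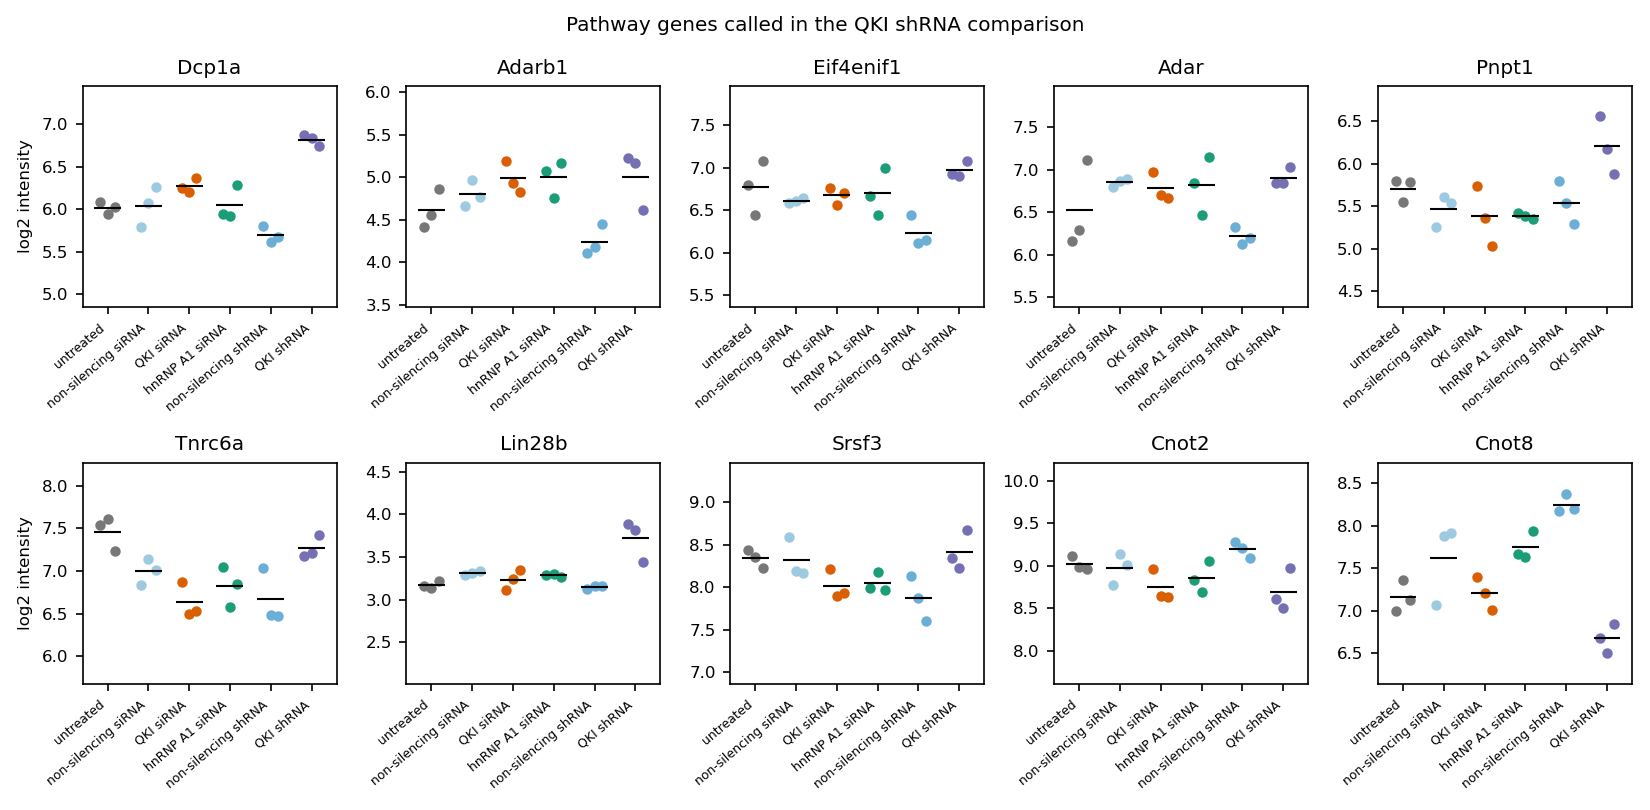
Log2 intensity (y axes, each spanning 2.6 log2 units) of the 10 pathway genes called in QKI shRNA against non-silencing shRNA, on every array of the 6 groups (x axes), with bars at the group means. Dcp1a and Lin28b are highest in the line labelled QKI shRNA, and Cnot8 is highest in the non-silencing line and lowest in the line labelled QKI shRNA.

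The genes whose levels followed a member most closely over the 18 arrays were ranked by Pearson r, among singly annotated clusters whose mean reached the 25 percentile mark. For Drosha they were Cabin1 and Son (r = 0.92 and 0.91), and for Dgcr8 Kpnb1 and Fam98a (both 0.87). Xpo5 was followed by Ipo4 and Ust (both 0.88), Ago3 by Ttll5 and Vamp1 (0.90 and 0.83), and Ago4 by Kdm5b and Dhx40 (0.93 and 0.89). The arrays share normalization and groups, and these values are a description.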

How the data were processed

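The gene-level and exon-level tables of 18 rat exon arrays hold log2 intensities that the authors made with RMA in Partek, per the submitters' processing notes. Their settings and the genome build are not stated there. Per the labels' protocols, RNA was reduced in ribosomal RNA, amplified and biotin-labelled. Symbols came from the array annotation, updated through RefSeq (GRCr8). Of 18901 clusters 13327 had 1 symbol, 620 several and 4954 none, and none was named from several.

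The values were used as deposited. Group means were estimated jointly from the 18 arrays with limma 3.58.1 in R 4.3.3 (12 residual and 3.57 prior degrees of freedom), with Benjamini-Hochberg adjustment over all clusters or probe sets, and adjusted p under 0.05 was called. Exon usage used probe sets at or above percentile 25 in genes with at least 3. Having 3 arrays per group limits the precision. Of the 8 comparisons checked, every pair of same-numbered arrays deviated together only between the stable lines (r = 0.27, 0.14 and 0.18), from the data, not the labels. QKI siRNA was set against hnRNP A1 siRNA only among the 15 pairs of groups, where no member was called between them.

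In the likeness and pathway results, up to 4 called genes per list and direction and 2 genes per member were named. The script was tested on simulated data. The members, lists and tests were chosen with earlier results of these data known.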

Additional observations from a re-analysis of the deposited data

Results flagged for a closer look

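The difference of Drosha between QKI siRNA and its control departed from that between the stable lines by -0.79 on the log2 scale (95% interval -1.24 to -0.34, limma with Benjamini-Hochberg adjustment, adjusted p = 0.0433). Drosha differed by -0.16 with QKI siRNA, where the groups overlapped, and by 0.63 in the line labelled QKI shRNA, where all 3 arrays were higher than all 3 of the control line. Qki itself gave -1.19 in the same test (adjusted p = 0.0432), and its change in the line labelled QKI shRNA was -0.25 and not called. The setting and the lines cannot be told apart.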

How the results depend on the processing

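Over 42 results and 1090 alternatives, 893 stayed the same. For a change this means the same direction and side of the threshold, and for a count an equal or similar number. Of the rest, 114 lost a call, 3 gained one, 19 turned direction and 61 were counts that moved. Members called in QKI shRNA against non-silencing shRNA numbered 1 as reported, 2 after quantile normalization and without untreated array 3 and QKI shRNA array 3, 0 after centring each array on its median, and 0 to 2 when 1 array was left out. Of the 18901 clusters 1943 were called as reported, 1996 after quantile normalization, 2470 without those 2 arrays and 1461 after centring. For any difference over the 6 groups the number was 0 as reported, 1 after quantile normalization and without those 2 arrays, and 0 to 1 when 1 array was left out. Of all clusters 1875 were called there as reported, 2139 after quantile normalization and 3417 without those 2 arrays. The single call of non-silencing shRNA against untreated became 0 after centring, with only the arrays of the groups compared, with a trend and robust prior, with the replicate block, without those 2 arrays and from the median of the exon-level probe sets, and was 0 to 1 when 1 array was left out. That of the siRNA against the shRNA setting became 0 under the same alternatives except the replicate block, where it stayed at 1, and was 0 to 1 when 1 array was left out. Without those 2 arrays 1 member each was called in QKI siRNA, QKI shRNA and hnRNP A1 siRNA against untreated. Those fits called 897, 1635 and 843 of the 18901 clusters, against 87, 385 and 56 as reported. Members with a called exon numbered 0 to 1 when 1 array was left out.

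Under the replicate block Drosha stood at 0.63 between the stable lines (limma adjusted p = 0.0132), and with only their arrays as well at an adjusted p of 0.0476. The changes that turned direction were not called as reported, except that of Srsf3. In QKI shRNA against non-silencing shRNA, quantile normalization gave 0.0921 for Xpo5 and 0.000737 for Ago3, and centring gave -0.0416 for Ago4. Without the 2 arrays Xpo5 was at 0.0994 and Ago4 at -0.28, and from the exon-level median Ago4 was at -0.24 and Srsf3 at -0.99. With 1 array left out Xpo5 ran from -0.16 to 0.0994 and Ago4 from -0.28 to 0.17. In hnRNP A1 siRNA against non-silencing siRNA centring gave 0.0231 for Xpo5, and the exon-level median gave -0.0242 for Ago3 and 0.18 for Ago4. With 1 array left out Xpo5 ran there from -0.12 to 0.0677 and Ago3 from -0.0592 to 0.19. The number of pathway genes called between the stable lines was 10 as reported, 3 after centring, 14 after quantile normalization and 4 to 10 with 1 array left out. Centring moved the median of all clusters in QKI siRNA against untreated from 0.12 to -0.04. The cause of these changes was not tested.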
